A study of Mus musculus with 8 samples.

Results

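The genes described are Smarcd1 and 9 further genes for subunits of the BAF (mammalian SWI/SNF) chromatin remodelling complex, 10 of the 55335 genes counted, in mouse E14 embryonic stem cells (ESCs) in which Sox2, hnRNPK or Cdk9 was knocked down (KD) with shRNAs. The 10 genes were selected by symbol, namely Smarcd1, Smarcd2, Smarcd3, Smarca4, Smarcb1, Smarcc1, Smarcc2, Smarce1, Arid1a and Arid1b. Smarcd1 heads the list because it was chosen from earlier results of these data. Its levels, its differences between groups and its calls are therefore given as a description, without p-values. None of them is used as support. All 10 passed the filter on low counts, which 16504 genes passed.

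Poly(A) RNA was sequenced from 8 libraries in 4 groups of 2 biological replicates. All are E14 ESCs, a mouse ESC line, and all carry an shRNA. The control cells had a negative control shRNA (labelled NG), and the other groups had shRNAs against Sox2 (Sox2-KD), Hnrnpk (labelled hnRNPK-KD) or Cdk9 (Cdk9-KD). The labels give no age, sex, treatment or time after infection, and do not say which of the shRNAs designed for a gene was used in which library.

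BAF complexes use the energy of ATP to slide or evict nucleosomes and so open chromatin for transcription factors. Each complex holds an ATPase (Smarca4 or Smarca2) and a core of Smarcb1, Smarce1 and a dimer drawn from Smarcc1 and Smarcc2. It also holds a Smarcd subunit (Smarcd1, Smarcd2 or Smarcd3, which exclude each other) and an ARID subunit (Arid1a or Arid1b) that defines the canonical form. In ESCs the complex is known for Smarca4 as its ATPase and for a high share of Smarcc1 over Smarcc2, and it is needed for self-renewal.

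The shRNA target sites are shown first because every difference below is a difference between cells that carry different shRNAs. They are given 5′ to 3′ as in the target mRNA, with the site that pairs with the guide's seed (bases 2 to 8 of the guide, taken as the exact complement of the sense strand) in capitals.
NG-shRNA: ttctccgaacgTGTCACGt
SOX2-shRNA1: aggagcacccggaTTATAAAt
SOX2-shRNA2: caaagagatacaaGGGAATTg
hnRNPK-shRNA1: cggattaaacaaaTTCGTCAt
hnRNPK-shRNA2: gggttcagtgctgATGAAACt
CDK9-shRNA1: ggacatgaaggctGCGAATGt
CDK9-shRNA2: gcatgctgtctacTCACTTGa
Each of the 6 sites against Sox2, Hnrnpk or Cdk9 was present without mismatch in a GENCODE vM21 transcript of its target. Over the transcripts of the 10 BAF genes, the best alignment of any of the 7 sites had at least 6 mismatches, and for Smarcd1 at least 7. In the longest Smarcd1 transcript only the seed site of CDK9-shRNA1 was present, at 1 place, and 5.01% of 21877 protein-coding genes hold that site. The seed site of the control shRNA was not in the longest Smarcd1 transcript, and 6.67% of protein-coding genes hold it.

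The library totals ranged from 16709201 to 17719366 counts. Sox2 was at 412 and 530 CPM (counts relative to the library total, scaled by TMM) in control and at 320 and 284 CPM in Sox2-KD, a log2 fold change (log2FC) of -0.64 ± 0.16 (SE; edgeR adjusted p = 0.0479, from 0.00693 to 0.311 over 16 alternatives). That call held in 5 of the 16 and was lost, among others, without either control, either Sox2-KD or either library labelled hnRNPK-KD, with log2FC of -0.83 to -0.46. Cdk9 was at 109 and 129 CPM in control and 73.1 and 53.2 CPM in Cdk9-KD (log2FC -0.91 ± 0.18, edgeR adjusted p = 0.0985, not called, from 0.000734 to 0.503 over 16 alternatives and below 0.05 in 3 of them). Hnrnpk was at 1094 and 1131 CPM in control, at 697 CPM in replicate 1 labelled hnRNPK-KD and at 1144 CPM in replicate 2, which went against its label, so this pair is called the hnRNPK-labelled libraries. All 9 ESC markers were detected, with a summed level of 6461 to 8604 CPM. In Sox2-KD 7 of the 9 had a log2FC below 0 and 2 above. Of the 9, 4 lay below both controls in both Sox2-KD libraries, where 25.2% of all genes did, and 0 were called. The summed level of 8 trophectoderm markers was 50.7 and 70.1 CPM in control, 163 and 299 CPM in Sox2-KD, 75.9 and 125 CPM in the hnRNPK-labelled libraries and 83.5 and 91.1 CPM in Cdk9-KD, and that of 7 primitive endoderm markers was 3.83 and 5.10 CPM in control against 43.1 and 62.5 CPM in Sox2-KD and 2.97 to 5.96 CPM elsewhere. Of the 6 trophectoderm markers tested, 5 had a log2FC above 0 in Sox2-KD and 4 were called higher, where 2.63% of all genes were. The mean of the keratins Krt8 and Krt18 was 17.9 and 3.07 CPM in control and 140 and 62.1 CPM in Sox2-KD. The 1 marker with a log2FC below 0 was Cdx2, a factor that specifies trophectoderm. Its mean was 27.4 CPM in control and 6.16 CPM in Sox2-KD, and its level was 85.1 CPM in replicate 2 labelled hnRNPK-KD. Most of the primitive endoderm sum in Sox2-KD was Dab2, at 35.0 and 54.2 CPM there and 0.676 and 0.859 CPM in control. Of the 5 primitive endoderm markers tested, 4 had a log2FC above 0 in Sox2-KD and 2 were called higher. The mean of Gata4 was 0.966 CPM in control and 0.805 CPM in Sox2-KD. Markers at 0 in every library numbered 0 in these lists, and 5 neural and 6 fibroblast markers summed to at most 41.6 and 6.19 CPM. Both of the 2 neural markers tested had a log2FC below 0 in Sox2-KD, and 1 was called lower, where 1.69% of all genes were. All 3 fibroblast markers tested were also below 0 there, and 0 were called. The part of these other cell types in the Sox2-KD values below was not tested.

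Smarcd1 encodes a BAF subunit that links the remodeller to nuclear receptors and other transcription factors. Its gene (ENSMUSG00000023018.5) lies on the plus strand of chromosome 15, from 99702129 to 99713991 in GRCm38, with 7 transcripts whose exons cover 4026 bp together. The counts of Smarcd1 were 1154 and 1233 in control, 1917 and 1895 in Sox2-KD, 2195 and 2424 in the hnRNPK-labelled libraries and 2682 and 2285 in Cdk9-KD. In CPM these are 65.0 and 70.6 in control, 105 and 108 in Sox2-KD, 129 and 141 in the hnRNPK-labelled libraries, and 157 and 135 in Cdk9-KD. Both control libraries were thus below all 6 others, and the groups did not overlap in any of the 3 comparisons with control. Of all tested genes, 28.2% lay above both controls in both Sox2-KD libraries. The share was 20.4% for the hnRNPK-labelled libraries and 21.2% for Cdk9-KD.

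Against control, the log2FC of Smarcd1 was 0.65 ± 0.14 (SE) in Sox2-KD, which is 1.57-fold (95% interval 1.26 to 1.96). In the hnRNPK-labelled libraries it was 0.99 ± 0.14, or 1.99-fold (1.60 to 2.48). In Cdk9-KD it was 1.11 ± 0.14, or 2.15-fold (1.73 to 2.68). These 3 differences share the same 2 control libraries, so they are not separate measurements of the control level. The Smarcd1 level was as high in replicate 2 labelled hnRNPK-KD (141 CPM), where Hnrnpk was not lower than in control, as in replicate 1 (129 CPM), where it was.

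**Figure D1:**
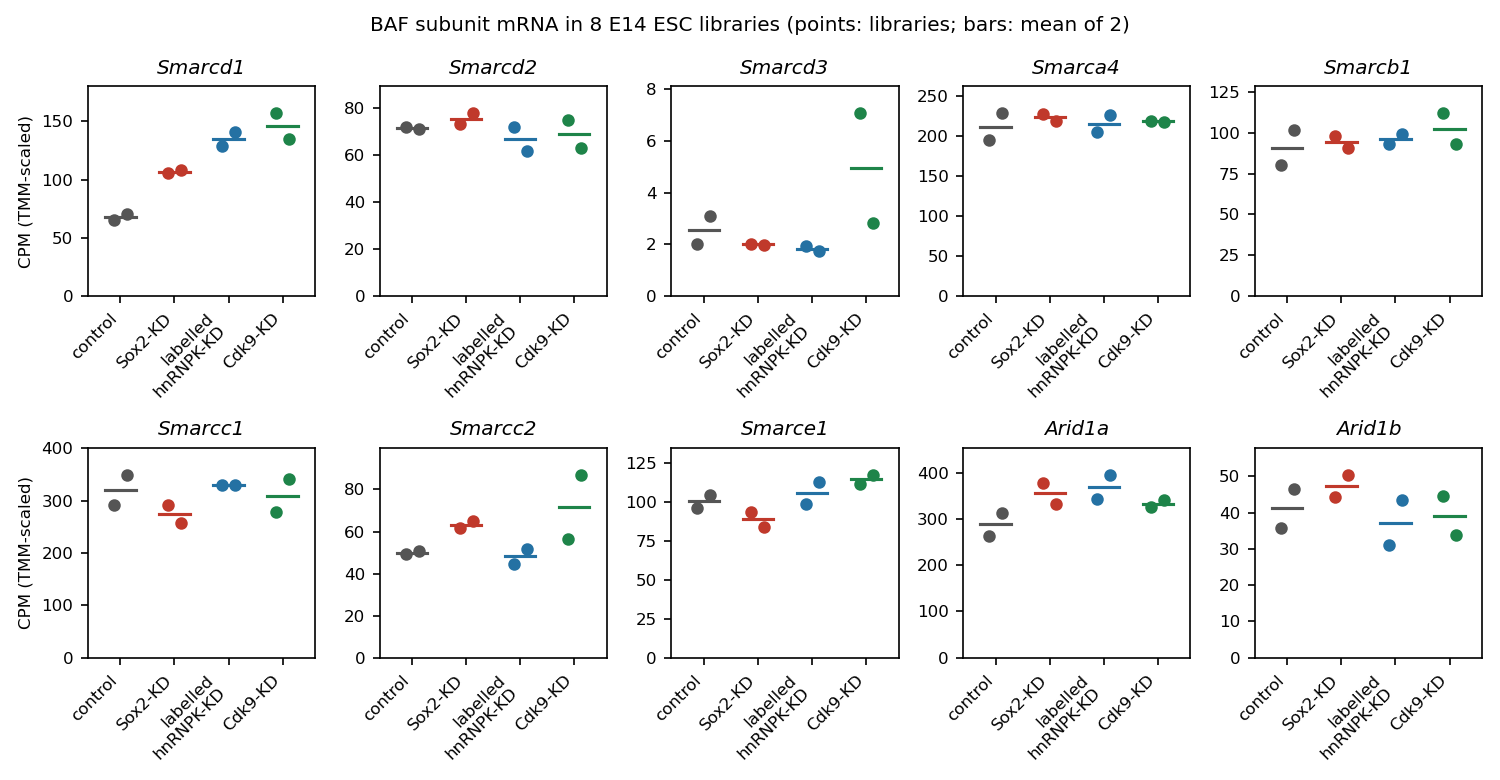
Each panel plots the CPM of 1 BAF subunit (y axis, from 0) by group (x axis), with a point for each library and a bar for the mean of the 2 libraries. For Smarcd1 both control points, at 65.0 and 70.6 CPM, lie below the 6 others, which run from 105 to 157 CPM, while for Smarcd2 all 8 points lie between 61.7 and 77.9 CPM.

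With edgeR's quasi-likelihood test, and a call where the adjusted p was below 0.05 and the log2FC exceeded 0.6 in size, Smarcd1 was the 1 of the 10 subunits called in Sox2-KD, where 4.32% of all tested genes were called and 2.63% were called higher. It was also the 1 of 10 called in Cdk9-KD, where 0.139% of all genes were called and 0.0545% were called higher. In the hnRNPK-labelled libraries 0 of 10 and 0% of all genes were called. At an unadjusted p under 0.05 there were 2 of 10 (Smarcd1 and Arid1a) and 1325 of 16504 genes (8.03%). DESeq2 called 1 of the 10, Smarcd1, and 91 of 33088 genes (0.275%). Since Smarcd1 was chosen with these values known, nothing is read from its own calls. Leaving out control replicate 1, control replicate 2, Sox2-KD replicate 1 or Sox2-KD replicate 2 ended the Sox2-KD call, with log2FC of 0.58, 0.71, 0.66 and 0.63, and so did testing without the filter (0.62). The Cdk9-KD call ended without control replicate 1 (1.01), control replicate 2 (1.14) or Cdk9-KD replicate 1 (0.96), and with only the 4 libraries compared in the fit (1.10).

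The knockdowns can also be set against each other without the control libraries. For Smarcd1 this too is a description, since it was chosen with earlier results of these libraries known. Smarcd1 in Sox2-KD, at 105 and 108 CPM, was below all 4 libraries of the other 2 groups, which lay from 129 to 157 CPM. Its log2FC between Sox2-KD and the hnRNPK-labelled libraries was -0.34 ± 0.14 (95% interval -0.65 to -0.02), and 5.9% of all genes were called in that comparison. Between Sox2-KD and Cdk9-KD it was -0.45 ± 0.14 (95% interval -0.76 to -0.14), where 7.33% of all genes were called. Smarcd1 was called in neither comparison, and nothing is read from that. Of all tested genes, 27.3% lay lower in both Sox2-KD libraries than in both hnRNPK-labelled libraries, and 25.1% lower than in both Cdk9-KD libraries. Of the 10 subunits, 3 lay lower in each of these comparisons, Smarcd1 among them. Of the 10 subunits, edgeR called 0 in both comparisons, against 1 and 3 at an unadjusted p under 0.05 (Smarcd1 in the former, and Smarcd1, Smarcd3 and Smarce1 in the latter), where 21.3% and 21.7% of all genes were under that p, and DESeq2 also called 0 in each. Without Cdk9-KD replicate 2, Smarcd3 was called lower in Sox2-KD than in Cdk9-KD (log2FC -1.82).

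Exons of Smarcd1 overlap those of 2 genes on the other strand, and the strand setting of the counts is not given in the sources used here. Gm17349 shares 287 bp (7.13% of the Smarcd1 exon length) and had 0 counts in all 8 libraries. Gm34939, annotated as antisense, shares 224 bp (5.56%) and had 1 and 2 counts in control, 8 and 10 in Sox2-KD, 9 and 13 in the hnRNPK-labelled libraries, and 6 and 5 in Cdk9-KD. These counts are at most 13 beside 1154 to 2682 for Smarcd1. Without strand, the reads in the shared bases cannot be told apart.

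The promoter window of Smarcd1 (RefSeq start, 250 bases before to 50 after, GRCm38.p6, chr15:99702037-99702336, plus strand) is shown beside that of Smarcd2 (chr11:106267583-106267882, minus strand), its paralogue of similar level, whose mRNA did not pass the test in any comparison. Both RefSeq starts lie inside the GENCODE gene. The GENCODE gene of Smarcd1 begins at 99702129, within its window. That of Smarcd2, on the minus strand, begins at 106272972, outside its window, which lies wholly inside the gene. The windows are thus not alike in their place in the gene. Capitals mark matches, on either strand, to 8 short motifs listed after the sequences.
Smarcd1: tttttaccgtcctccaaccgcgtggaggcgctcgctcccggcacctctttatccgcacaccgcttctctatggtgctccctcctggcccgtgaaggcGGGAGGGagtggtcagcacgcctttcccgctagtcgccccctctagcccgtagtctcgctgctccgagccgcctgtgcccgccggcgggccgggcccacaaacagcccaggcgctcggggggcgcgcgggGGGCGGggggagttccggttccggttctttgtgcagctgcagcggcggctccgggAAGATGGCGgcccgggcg
Smarcd2: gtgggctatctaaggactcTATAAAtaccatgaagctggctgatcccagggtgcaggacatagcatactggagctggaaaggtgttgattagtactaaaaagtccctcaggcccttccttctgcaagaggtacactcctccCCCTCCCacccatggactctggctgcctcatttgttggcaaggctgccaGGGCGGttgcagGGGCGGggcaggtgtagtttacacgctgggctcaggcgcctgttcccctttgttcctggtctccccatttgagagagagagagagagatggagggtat
The motifs were CATTGTT (SOX), CCGGAAG (ETS), AAGATGGCG (YY1), CCAAT (the CCAAT box), GGGCGG (SP), CACGTG (E-box), TATAAA (the TATA box) and CCCTCCC (poly(C), the kind of tract that hnRNPK prefers). The Smarcd1 window had a GC content of 71.3% and 35 CpG, against medians of 52.7% and 7 over 32851 promoters, and the Smarcd2 window had 55% and 4 CpG. The Smarcd1 window holds the YY1 letters from position 283 (1.4% of all promoters hold them), the SP letters from position 228 (35.7%) and the poly(C) letters on the other strand from position 98 (22%). The YY1 letters include the annotated start codon, at position 286. SOX letters were in 0 of the 10 promoter windows of these genes (Arid1a has 2 windows, and Smarce1 had no entry) and in 3.78% of all promoters. The TATA letters were in 1 window of the 10, that of Smarcd2, and in 13.6% of all promoters. Among the 10 windows, the SP letters were in 10, the poly(C) letters in 5 and the YY1 letters in 1, that of Smarcd1. A match is a description of the letters only.

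Levels between genes were compared as CPM per kb of exon, with the length of all annotated exons of a gene together. In control, Smarcc1 was highest (37.3 and 44.5 CPM per kb), then Smarca4 (30.2 and 35.2), Arid1a (23.0 and 27.3), Smarcd2 (20.1 and 19.8), Smarcd1 (16.1 and 17.5), Smarce1 (14.5 and 15.7), Smarcb1 (10.1 and 12.8), Smarcc2 (8.86 and 9.10), Arid1b (2.85 and 3.68) and Smarcd3 (0.396 and 0.604). With this length the neighbouring pairs in the order did not overlap in control. The order depends on the length used. With that of the longest transcript, Smarce1 (30.9 and 33.4 CPM per kb) was above Smarcd2 (26.2 and 25.9) and Smarcd1 (19.7 and 21.4), and Arid1a (32.2 and 38.2) overlapped Smarca4 (30.6 and 35.8). By mean log2 CPM over the 8 libraries, the subunits ranked from percentile 29.1 (Smarcd3) to 97 (Arid1a) of all tested genes, with Smarcd1 at 87.5. Over the 8 libraries the ratio of the highest to the lowest CPM was 2.41 for Smarcd1, 1.17 for Smarca4 and 1.26 for Smarcd2, and it was above that of Smarcd1 for Smarcd3 alone (4.05).

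The Smarcd paralogues compete for a single place in the complex, and their order by level differed between control and the other libraries. Smarcd2, a paralogue also known from blood cell development, was at 20.1 and 19.8 CPM per kb in control, 20.5 and 21.7 in Sox2-KD, 20.1 and 17.2 in the hnRNPK-labelled libraries, and 20.9 and 17.6 in Cdk9-KD. Its log2FC against control was 0.08, -0.10 and -0.05 (edgeR adjusted p = 0.832, 0.940 and 0.951, and 0.662 or more over the alternatives). Smarcd1 was at 16.1 and 17.5 CPM per kb in control and at 26.2 to 38.9 in the knockdowns. The ratio of Smarcd1 to Smarcd2 was therefore 0.804 and 0.884 in control, 1.28 and 1.24 in Sox2-KD, 1.59 and 2.04 in the hnRNPK-labelled libraries, and 1.86 and 1.90 in Cdk9-KD. It lay below 1 in both control libraries and above 1 in all 6 others.

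The share of Smarcd1 in the summed Smarcd level per kb was 44.1% and 46.2% in control, 55.6% and 54.9% in Sox2-KD, 60.9% and 66.6% in the hnRNPK-labelled libraries, and 63.5% and 64.9% in Cdk9-KD. The summed level was 36.6 and 38.0 CPM per kb in control and 47.0 to 61.2 in the others. These ratios follow from the Smarcd1 values above and carry no test. Smarcd3, the paralogue of heart and muscle, had 36 and 54 counts in control, 37 and 35 in Sox2-KD, 33 and 30 in the hnRNPK-labelled libraries, and 121 and 48 in Cdk9-KD. Its high value in Cdk9-KD came from replicate 1, and replicate 2 lay between the controls (log2FC 0.95 ± 0.44, adjusted p = 0.491). Smarcd3 is uncertain, because 48.2% of its exon length is shared with Chpf2 on the other strand.

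**Figure D2:**
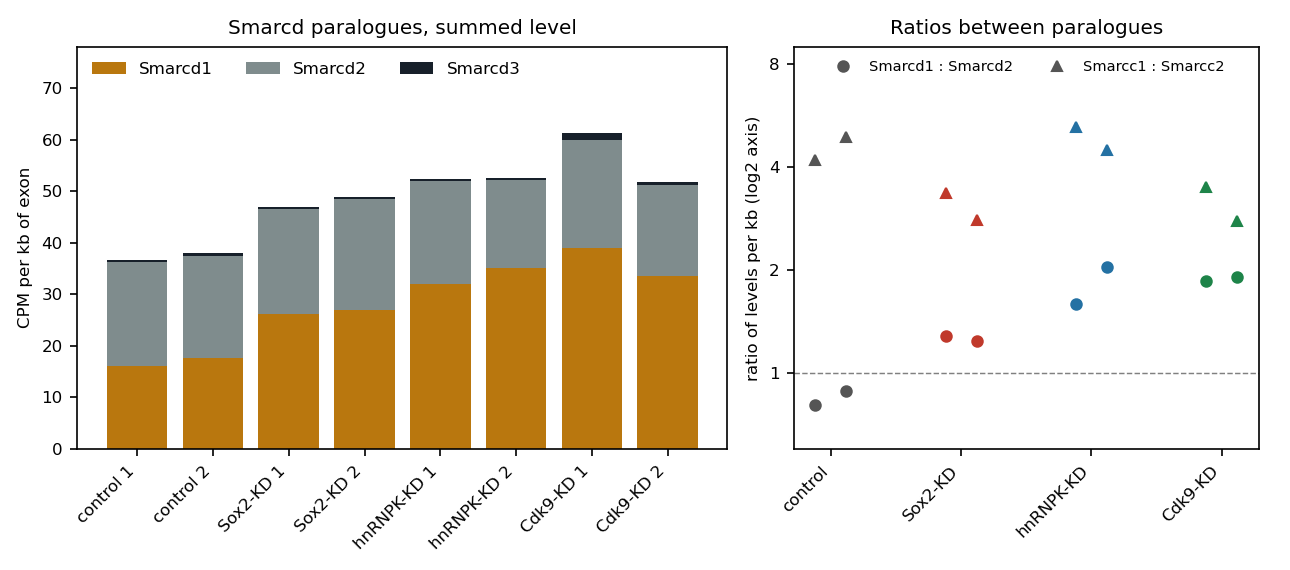
The left panel stacks the levels of Smarcd1, Smarcd2 and Smarcd3 (CPM per kb of exon) in each of the 8 libraries, and the right panel plots the ratio of Smarcd1 to Smarcd2 (circles) and of Smarcc1 to Smarcc2 (triangles) by group on a log2 axis, 1 point for each library. The Smarcd1 to Smarcd2 ratio lies below 1 in both control libraries, at 0.804 and 0.884, and between 1.24 and 2.04 in the 6 others.

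Of the ATPases, Smarca4 was at 195 and 228 CPM in control, 227 and 219 in Sox2-KD, 204 and 226 in the hnRNPK-labelled libraries, and 219 and 218 in Cdk9-KD. The groups overlapped throughout, and the log2FC was 0.08, 0.02 and 0.05 (edgeR adjusted p = 0.817, 0.982 and 0.951, each within ± 0.39 by its 95% interval). Its paralogue Smarca2 had 16 and 16 counts in control, 38 and 26 in Sox2-KD, 20 and 23 in the hnRNPK-labelled libraries, and 21 and 8 in Cdk9-KD. Its log2FC in Sox2-KD, 0.97 ± 0.49, was the largest of the further SWI/SNF subunits and did not pass the test (edgeR adjusted p = 0.314, from 0.220 to 0.624 over 15 alternatives). Per kb, Smarca4 exceeded Smarca2 478-fold and 549-fold in control and 326-fold and 240-fold in Sox2-KD. The size of this ratio depends on the length used, as the mean log2 ratio in Sox2-KD was 8.13 by all exons and 6.88 by the longest transcript, by which it was 7.75 in control.

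In the core, Smarcb1 was at 80.0 and 102 CPM in control and 90.9 to 112 CPM in the other 6 libraries, with log2FC of 0.05, 0.08 and 0.17 (edgeR adjusted p = 0.897, 0.953 and 0.771). Smarce1, a DNA-binding subunit, was at 96.2 and 104 CPM in control, 93.7 and 83.8 in Sox2-KD, 98.6 and 113 in the hnRNPK-labelled libraries, and 111 and 117 in Cdk9-KD. Smarce1 thus lay below both controls in Sox2-KD and above both in Cdk9-KD, and neither difference passed the test (log2FC -0.17 and 0.19, edgeR adjusted p = 0.558 and 0.695). Between Sox2-KD and Cdk9-KD its log2FC was -0.36 ± 0.14 (edgeR adjusted p = 0.164).

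The scaffold dimer is drawn from Smarcc1 and Smarcc2. Smarcc1 was at 292 and 349 CPM in control, 292 and 257 in Sox2-KD, 330 and 330 in the hnRNPK-labelled libraries, and 278 and 341 in Cdk9-KD. Its log2FC was -0.22, 0.04 and -0.05 (edgeR adjusted p = 0.484, 0.973 and 0.952). Smarcc2 was at 49.2 and 50.5 CPM in control, 61.5 and 65.1 in Sox2-KD, 44.6 and 51.9 in the hnRNPK-labelled libraries, and 56.3 and 86.9 in Cdk9-KD. Both Sox2-KD and both Cdk9-KD libraries were above both controls, without a call (log2FC 0.34 ± 0.20 and 0.52 ± 0.20, edgeR adjusted p = 0.391 and 0.398, from 0.198 to 0.735 and from 0.137 to 0.852 over 16 alternatives). The Cdk9-KD value rested on replicate 2, and without it the log2FC was 0.18. The ratio of Smarcc1 to Smarcc2 per kb was 4.20 and 4.89 in control, 3.36 and 2.80 in Sox2-KD, 5.24 and 4.50 in the hnRNPK-labelled libraries, and 3.50 and 2.78 in Cdk9-KD. It was lower in Sox2-KD and Cdk9-KD than in either control library, a description with no test. Of the Smarcc1 exon length, 1.57% is shared with Dhx30 on the other strand.

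Of the ARID subunits, Arid1a was at 263 and 313 CPM in control, 377 and 333 in Sox2-KD, 342 and 395 in the hnRNPK-labelled libraries, and 326 and 340 in Cdk9-KD. All 6 were above both controls, where 28.2%, 20.4% and 21.2% of all genes lay above in the 3 comparisons in turn. None of the 3 passed the test for Arid1a (log2FC 0.30, 0.36 and 0.21, edgeR adjusted p = 0.310, 0.586 and 0.683). Arid1b was at 35.9 and 46.4 CPM in control and 31.0 to 50.4 CPM in the other libraries, with log2FC of 0.20, -0.14 and -0.07 (edgeR adjusted p = 0.664, 0.935 and 0.951). Arid1a exceeded Arid1b 7.40-fold and 8.06-fold per kb in control, and between 7.25-fold and 12.1-fold in the others.

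**Figure D3:**
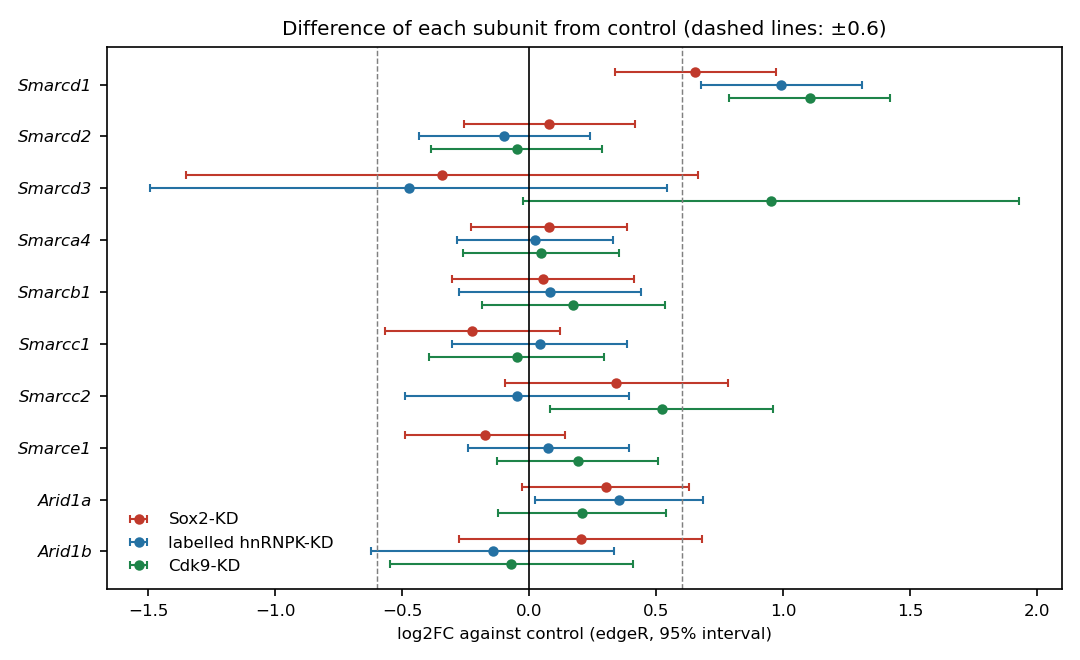
Points give the edgeR log2FC of each subunit (y axis) against control in Sox2-KD, the hnRNPK-labelled libraries and Cdk9-KD (x axis, log2 units), bars give the 95% interval, and dashed lines mark an absolute log2FC of 0.6. The log2FC of Smarcd1, which was chosen for these values, is 0.65, 0.99 and 1.11, and of the other 9 subunits the intervals above 0 are those of Arid1a in the hnRNPK-labelled libraries (0.36) and Smarcc2 in Cdk9-KD (0.52).

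Counted over the 10 subunits, 7 had a log2FC above 0 in Sox2-KD, 6 in the hnRNPK-labelled libraries and 7 in Cdk9-KD, with medians of 0.08, 0.03 and 0.18, against 0.02 in each comparison over all tested genes. In Sox2-KD 4 subunits lay above both controls in both libraries and 2 lay below, where 28.2% of all genes lay above and 25.2% below. In the hnRNPK-labelled libraries 2 lay above and 1 below (20.4% and 18.7% of all genes), and in Cdk9-KD 4 lay above and 0 below (21.2% and 18% of all genes). Smarcd1 is among those above in each, by its choice.

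The further SWI/SNF subunits, 20 genes of the accessory, PBAF and non-canonical forms, were looked at for the same comparisons, and 17 passed the filter. Actl6b, Bcl11a and Bcl11b, the first known as a neuronal subunit, did not. In each of the 3 comparisons with control, edgeR called 0 of 17 and DESeq2 called 0, against 1 at an unadjusted p under 0.05, where 19.3%, 8.03% and 10.4% of all genes were under that p. That gene was Actl6a in Sox2-KD, the actin-like subunit (190 ± 3.44 CPM in control and 145 ± 17.9 in Sox2-KD, SD, n = 2 each; log2FC -0.39, edgeR adjusted p = 0.151), and Bicral, of the non-canonical form, in the other 2 (log2FC 0.42 and 0.41, edgeR adjusted p = 0.595 and 0.464). The medians of the 17 were -0.03, 0.11 and 0.10.

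Of 20 remodeller genes outside SWI/SNF (ISWI, CHD, INO80 and related ATPases), all of which were tested, edgeR and DESeq2 called 0 in each comparison with control, against 4, 1 and 0 at an unadjusted p under 0.05 in Sox2-KD, the hnRNPK-labelled libraries and Cdk9-KD (19.3%, 8.03% and 10.4% of all genes). The largest value in Sox2-KD was that of Smarca1, an ISWI ATPase, with 99 and 100 counts in control, 49 and 41 in Sox2-KD, 50 and 81 in the hnRNPK-labelled libraries, and 148 and 87 in Cdk9-KD. Its log2FC was -1.16 ± 0.36 in Sox2-KD (edgeR adjusted p = 0.102, from 0.0486 to 0.403 over 16 alternatives). Between Sox2-KD and Cdk9-KD Smarca1 was the 1 of the 20 called (log2FC -1.45 ± 0.36, edgeR adjusted p = 0.0362), where 7.33% of all genes were called. Smarca1 was named for its Sox2-KD value, which that comparison uses again, so the call is a description. In Cdk9-KD, replicate 1 lay above both controls and replicate 2 below both. The call was not repeated under the alternatives.

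The genes whose log2 CPM over the 8 libraries was most like that of Smarcd1, of 9710 tested genes with a mean log2 CPM over 3, were Brf1, a factor for RNA polymerase III (Pearson r = 0.975), Zbtb40, a zinc finger protein (0.963), Vegfc, a growth factor of lymphatic vessels (0.959), Supt5, a factor of transcript elongation (0.954), and Mboat7, a lipid acyltransferase (0.954). The 8 libraries are 4 pairs of replicates that share their normalization, so these values are a description. Brf1 was at 23.4 and 23.8 CPM in control, 27.5 and 29.8 in Sox2-KD, 32.1 and 36.8 in the hnRNPK-labelled libraries, and 38.4 and 34.8 in Cdk9-KD. Supt5 was at 178 and 196 CPM in control, 234 and 225 in Sox2-KD, 232 and 244 in the hnRNPK-labelled libraries, and 257 and 229 in Cdk9-KD. Both had the controls as their lowest 2 libraries, as Smarcd1 did. All 5 genes were picked by this likeness over the same 8 libraries. A pattern shared with Smarcd1 therefore follows from the choice and is no support. None of the 5 was called in any of the 3 comparisons by edgeR's quasi-likelihood test (DESeq2 and the likelihood ratio test called Vegfc in Cdk9-KD), and their log2FC lay between 0.18 and 0.77. Among the subunits themselves, r over the 8 libraries ran from -0.74 (Smarcd2 and Smarce1) to 0.72 (Smarca4 and Smarcb1).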

How the data were processed

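The authors trimmed adapters and removed poor read pairs with Trimmomatic, aligned the rest with STAR (2.7.9a in the submitters' processing notes) to mm10 (GRCm38) and counted reads per gene of GENCODE vM23 with featureCounts 2.0.1. They deposited raw counts, neither normalized nor pooled, for 55335 genes. Strand and multi-mapping settings are not given in the sources used here.

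Symbols came from GENCODE vM21 (54587 identifiers matched exactly, 55154 without the version). Genes passing filterByExpr (minimum count 10, total 15) numbered 16504. All 8 libraries were fitted together in edgeR 4.0.16 (R 4.3.3), with TMM scaling, a group term and the quasi-likelihood test, and p-values were adjusted by Benjamini-Hochberg over all tested genes. Genes were called where the adjusted p was below 0.05 and the log2FC exceeded 0.6 in size. SE is the log2FC divided by the square root of F. CPM per kb used the union of annotated exons. Scripts were tested on simulated counts. DESeq2 1.42.0, other scalings and filters, fits on 4 libraries and the loss of each library were alternatives. The main fit did not pair the libraries by replicate number.

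The members and lists were chosen with earlier results of these data known. Named are the 10 subunits, the 3 targets, from each further list the genes called against control and the gene with the largest log2FC in Sox2-KD, and the 5 genes most like Smarcd1. Actl6a and Bicral, and the overlapping genes Gm17349, Gm34939, Chpf2 and Dhx30, are named outside this rule after their values were seen. In bulk RNA, fewer expressing cells and less RNA per cell cannot be told apart. Promoters are RefSeq's, and shRNA sites come from the study's oligonucleotide table.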

Additional observations from a re-analysis of the deposited data

How the results depend on the processing

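The count of called BAF subunits, 1 in Sox2-KD against control, was 0 without the filter and 0 to 1 when each library was left out in turn. In Cdk9-KD it was 1, but 0 with only the 4 libraries compared and 0 to 1 when each library was left out. In the hnRNPK-labelled libraries it was 0, but 1 by DESeq2 and 1 by the likelihood ratio test, Smarcd1 in each. Of all genes, DESeq2 called 0.275% there and the likelihood ratio test 0.527%. Between Sox2-KD and Cdk9-KD it was 0, and 0 to 1 when each library was left out (Smarcd3, without Cdk9-KD replicate 2). The count of other remodellers in Sox2-KD was 0, but 1 (Smarca1) by the likelihood ratio test, in alternatives added after seeing the data. The other counts of subunits and remodellers kept their value. Smarcd1 kept its sign in all 16 alternatives of each comparison, with log2FC of 0.58 to 0.72 in Sox2-KD, 0.90 to 1.05 in the hnRNPK-labelled libraries and 0.96 to 1.21 in Cdk9-KD.

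Values near 0 changed sign when a library was left out. The lowest and highest log2FC were -0.049 and 0.19 (Smarca4) and -0.13 and 0.23 (Smarcb1) in Sox2-KD. They were -0.11 and 0.13 (Smarca4, and -0.016 with library totals), -0.10 and 0.25 (Smarcb1), -0.10 and 0.16 (Smarcc1), -0.18 and 0.048 (Smarcc2), -0.047 and 0.16 (Smarce1), -0.43 and 0.067 (Arid1b) and -0.70 and 0.031 (Hnrnpk) in the hnRNPK-labelled libraries. In Cdk9-KD they were -0.21 and 0.070 (Smarcd2), -0.10 and 0.13 (Smarca4), -0.027 and 0.33 (Smarcb1), -0.21 and 0.056 (Smarcc1) and -0.32 and 0.12 (Arid1b). The cause was not tested. Hnrnpk also changed sign in the hnRNPK-labelled libraries, with a lowest and highest log2FC of -0.70 and 0.031. There its level was 697 CPM in replicate 1 and 1144 CPM in replicate 2.

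Deviations of same-numbered libraries correlated from -0.22 to 0.21 between groups. These values cannot tell whether some same-numbered libraries shared a batch. With the replicate number as a block the counts of called subunits stayed at 1, 0 and 1 and the log2FC of Smarcd1 was 0.65, 0.99 and 1.11. Under the block the Sox2 mRNA no longer passed the test in Sox2-KD. With the length of the longest transcript in place of all exons, the mean log2 ratio of Smarcd1 to Smarcd2 was -0.35 in control and 0.23, 0.75 and 0.81 in Sox2-KD, the hnRNPK-labelled libraries and Cdk9-KD. With 2 libraries a group, the 95% interval of a well-covered subunit spanned about ± 0.3 to 0.5 log2 units, while that of Smarcd3, with 30 to 121 counts a library, ran from -1.35 to 0.67 in Sox2-KD.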
